A study of Homo sapiens with 6 samples.

Results

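The genes described here are 36 regulators of the pluripotent state, followed through 3 lists of matrix-attached regions from H1 human embryonic stem cells. Each gene was taken as its body in a GRCh38 gene table plus 10 kb on each side, called its window, and the list holds 36 of the 20037 protein-coding genes in that table. MAR-seq, the assay, sequences the DNA that remains with the nuclear matrix after nuclei have been extracted with detergent and cut with restriction enzymes. The 6 samples formed 3 groups of 2: untreated H1 cells (hPSC), H1 cells carrying a short hairpin RNA named for LUC (shLUC) and H1 cells carrying a short hairpin RNA directed at HNRNPU (shHNRNPU). All came from a single cell line grown in mTeSR1 medium on Matrigel, and the labels give neither the delivery of the hairpins nor the time after it. One list of regions was available for each group, so no value below has a replicate error and no difference between groups was tested. The lists hold no expression value, so neither the pluripotent identity of the cells nor the loss of HNRNPU could be checked in them.

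The pluripotent state is held by a small circuit of transcription factors, POU5F1, SOX2 and NANOG, which bind their own genes and each other's. Further transcription factors, RNA-binding proteins, extracellular signals of the NODAL and FGF pathways, and enzymes acting on DNA methylation and chromatin extend this circuit. HNRNPU, also called scaffold attachment factor A, is an abundant nuclear protein that binds RNA and matrix-attached DNA. Matrix-attached regions are stretches of DNA at which chromatin loops are thought to be held by the nuclear matrix.

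The promoters of 4 of the genes were covered almost entirely or entirely by a region of at least 1 list, and they are printed because they show which DNA was called and how many enzyme sites it holds. They are RefSeq sequences of GRCh38.p14, from 250 bases before to 50 bases after the start of the gene, written 5′ to 3′ on the plus strand, the coding strand of all 4 genes. Capitals mark recognition sites of the restriction enzymes in the digest, namely MspI (CCGG), HaeIII (GGCC), RsaI (GTAC), AluI (AGCT), BamHI (GGATCC) and PvuII (CAGCTG, which contains an AluI site). These sites read the same on both strands, and neighbouring sites can overlap. The L1TD1 promoter (chr1:62194599-62194898) lay wholly within a region of the hPSC list and of the shHNRNPU list, and outside every region of the shLUC list.
L1TD1: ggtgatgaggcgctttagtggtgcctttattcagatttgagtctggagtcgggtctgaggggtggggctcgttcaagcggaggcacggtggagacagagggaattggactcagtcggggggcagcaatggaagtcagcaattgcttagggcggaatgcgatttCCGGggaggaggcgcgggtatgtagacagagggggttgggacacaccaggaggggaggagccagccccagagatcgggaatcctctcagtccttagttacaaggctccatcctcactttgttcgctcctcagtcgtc
The LIN28B promoter (chr6:104940715-104941014) lay wholly within an hPSC region, and 278 of its 300 bases lay within the first of the shLUC and shHNRNPU regions there.
LIN28B: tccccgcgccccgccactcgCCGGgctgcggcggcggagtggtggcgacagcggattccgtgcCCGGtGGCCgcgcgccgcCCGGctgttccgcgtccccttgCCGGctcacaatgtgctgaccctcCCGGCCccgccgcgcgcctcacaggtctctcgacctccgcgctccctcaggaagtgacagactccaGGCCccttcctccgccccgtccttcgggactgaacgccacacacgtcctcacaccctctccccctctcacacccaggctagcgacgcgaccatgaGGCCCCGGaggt
The ZFP42 promoter (chr4:187995521-187995820) lay wholly within a region of the hPSC list only.
ZFP42: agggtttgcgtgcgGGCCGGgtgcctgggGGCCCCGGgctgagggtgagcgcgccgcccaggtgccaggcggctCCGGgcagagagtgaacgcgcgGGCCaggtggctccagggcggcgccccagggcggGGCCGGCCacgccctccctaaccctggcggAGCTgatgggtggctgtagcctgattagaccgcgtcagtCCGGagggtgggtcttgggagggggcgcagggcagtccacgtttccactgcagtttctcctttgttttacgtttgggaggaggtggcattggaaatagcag
The TDGF1 promoter (chr3:46574285-46574584) also lay wholly within a region of the hPSC list only.
TDGF1: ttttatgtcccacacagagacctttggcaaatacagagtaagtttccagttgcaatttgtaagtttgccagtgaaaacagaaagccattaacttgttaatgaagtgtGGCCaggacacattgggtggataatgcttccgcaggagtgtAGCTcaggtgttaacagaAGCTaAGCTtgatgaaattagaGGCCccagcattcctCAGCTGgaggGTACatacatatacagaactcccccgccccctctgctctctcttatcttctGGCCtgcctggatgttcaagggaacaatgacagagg
The 4 promoters differed widely in base composition and in enzyme sites. L1TD1 held 58.0% G and C with 1 site, LIN28B 73.0% with 10 sites, ZFP42 69.3% with 11 sites and TDGF1 46.3% with 8 sites. Over the 26 member genes with a promoter sequence the median was 63.7% G and C with 7 sites, and over the 15817 other protein-coding genes it was 62.7% with 7 sites.

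The lists held 40106 regions for hPSC, 39368 for shLUC and 36277 for shHNRNPU, each 400 bp wide. A region was counted for a gene when at least 1 bp of it lay in the window. Windows of 28 of the 36 genes held a region of the hPSC list (77.8%), beside 74.5% of all protein-coding genes. The shLUC list had regions in 28 windows (77.8%, background 68.8%) and the shHNRNPU list in 27 (75.0%, background 67.6%). For each member, the 200 protein-coding genes nearest to it in length served as genes of similar length, and over these the same 36 windows would have given 25.5, 23.4 and 23.0 windows with a region (70.7%, 65.0% and 64.0%). In each list this was below the members' share. The exact binomial intervals of the members' shares were 60.8 to 89.9% in hPSC and in shLUC, and 57.8 to 87.9% in shHNRNPU. Each interval contained the share from genes of similar length, so these shares do not set the members apart.

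The number of regions differed more than the number of windows. The 36 windows held 77 regions in hPSC, 59 in shLUC and 61 in shHNRNPU, with a median of 1 per window in each list, as over all protein-coding genes. Means per window were 2.14, 1.64 and 1.69, against 1.68, 1.61 and 1.49 over all protein-coding genes. Genes of similar length gave sums of 48.8, 45.8 and 42.9, so that the members held 1.58 times (95% exact Poisson interval 1.24 to 1.97) that number in hPSC, 1.29 times (0.981 to 1.66) in shLUC and 1.42 times (1.09 to 1.82) in shHNRNPU. These intervals cover counting error only. In hPSC the ratio was 1.17 when the flank was widened to 50 kb, and without JARID2 the ratios were 1.40 (1.07 to 1.79), 1.23 (0.919 to 1.62) and 1.34 (0.999 to 1.75), so that the shHNRNPU interval then contained 1.

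Split by length, the ratio was highest for the long genes in hPSC. The 9 members longer than 40 kb held 47, 31 and 35 regions in hPSC, shLUC and shHNRNPU, against 22.0, 22.3 and 20.7 from genes of similar length. Their ratios were 2.13 (1.57 to 2.84), 1.39 (0.945 to 1.97) and 1.69 (1.18 to 2.35). Of the 47, 31 and 35 regions, JARID2 alone held 15, 8 and 9, where its genes of similar length averaged 4.43, 4.46 and 4.08. The 27 members shorter than 25 kb held 30, 28 and 26 regions, with ratios of 1.12 (0.756 to 1.60), 1.19 (0.792 to 1.72) and 1.17 (0.765 to 1.72). For the short genes all 3 intervals contained 1.

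**Figure D1:**
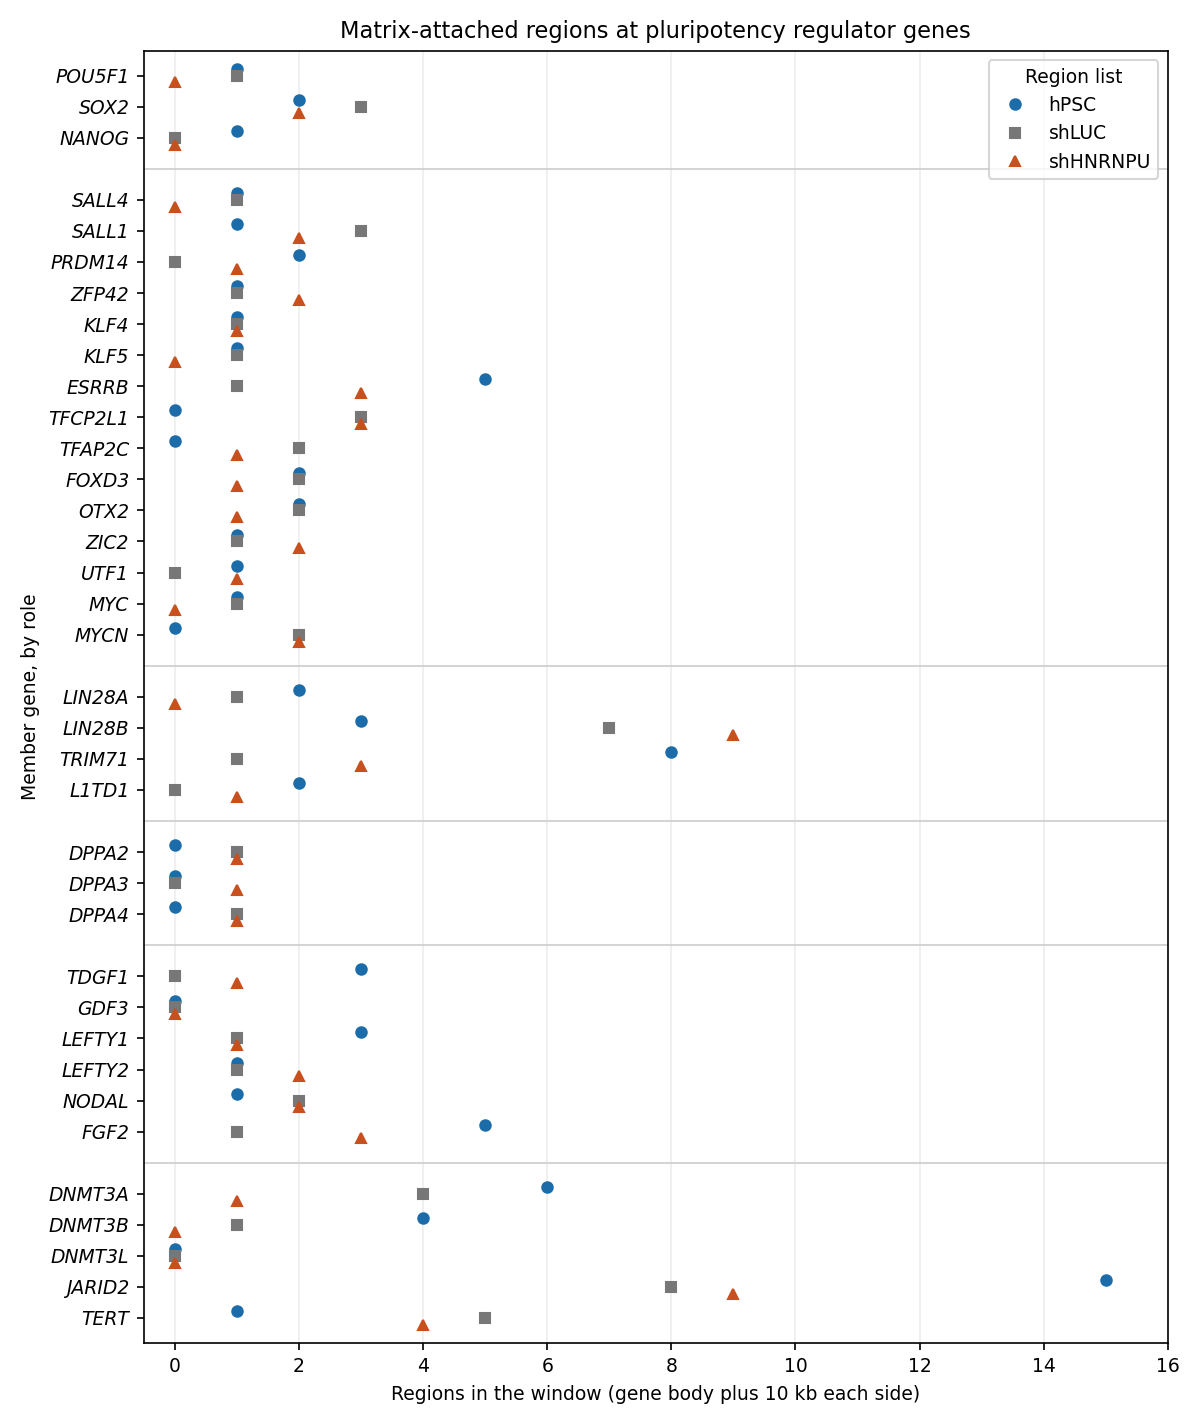
Number of matrix-attached regions in the window of each of the 36 genes (horizontal axis), with the genes in rows grouped by role and 1 symbol for each of the hPSC, shLUC and shHNRNPU lists. JARID2 stands at 15 regions in hPSC, LIN28B and JARID2 at 9 in shHNRNPU, and GDF3 and DNMT3L at 0 in all 3 lists.

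**Figure D2:**
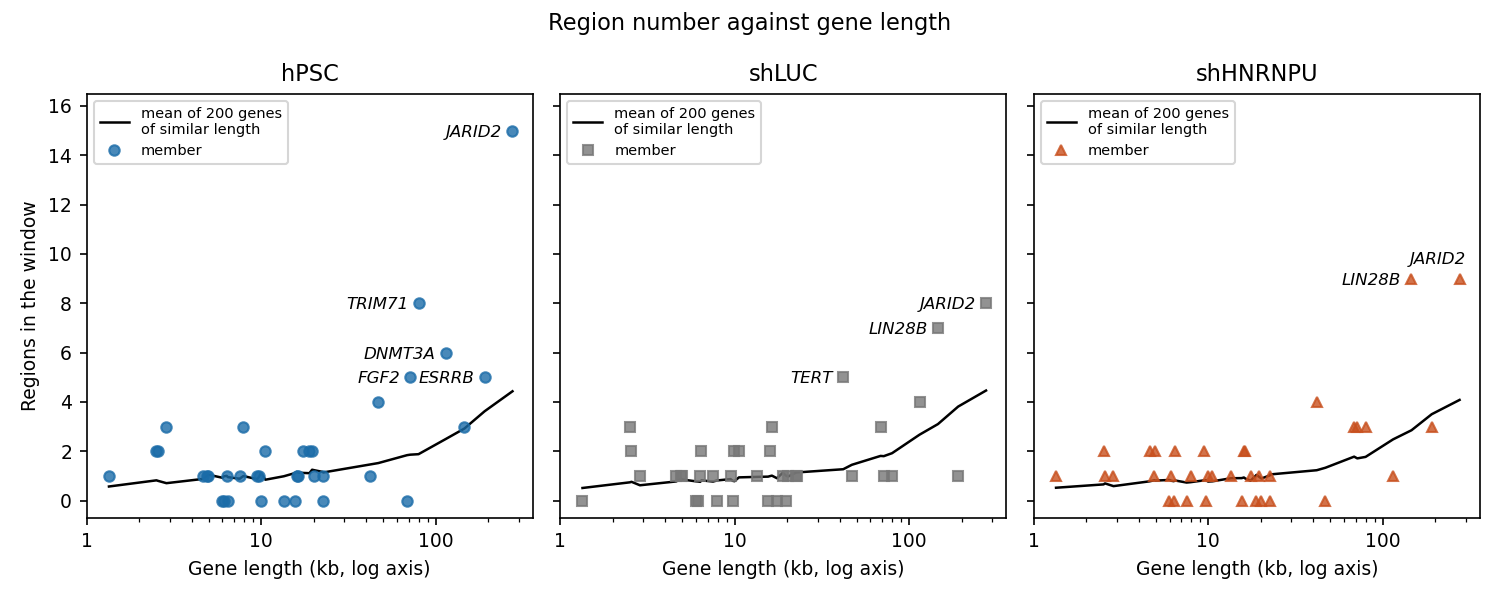
Regions in the window against gene length in kb (log axis) for the 36 genes, 1 panel per list, with a line for the mean of the 200 protein-coding genes nearest in length. Genes with 5 or more regions are named, and in hPSC JARID2 (15) and TRIM71 (8) lie farthest above the line.

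The 3 core transcription factor genes held 4 regions in hPSC, 4 in shLUC and 2 in shHNRNPU, against 2.79, 2.30 and 2.26 from genes of similar length. The ratios were 1.43 (0.391 to 3.67), 1.74 (0.474 to 4.45) and 0.883 (0.107 to 3.19), and each interval contained 1. POU5F1, the gene for OCT4, had 1 region in hPSC, 1 in shLUC and 0 in shHNRNPU. Both lay in its flanks, the hPSC region 2.40 kb and the shLUC region 10.13 kb from the nearest gene end, the second reaching into the window by its edge and lying within the long non-coding RNA gene PSORS1C3. SOX2, the HMG-box partner of OCT4, had 2 regions in hPSC, 3 in shLUC and 2 in shHNRNPU. All of them also lay in SOX2-OT, the long non-coding RNA gene that contains SOX2. The place over the SOX2 body was present in every list, with its centre 0.88 kb after the start in hPSC and 0.55 kb after it in both hairpin lists. A place before the start, centred at 7.68 kb in hPSC and 7.52 kb in shLUC, was not in the shHNRNPU list, and a place 7.43 kb after the start was found in both hairpin lists. NANOG, a homeobox factor, had 1 region in hPSC and 0 in both hairpin lists. The NANOG region lay 9.20 kb after the start and 0.55 kb from the far end, and the nearest region of either hairpin list was 17.7 kb from the gene.

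The 15 other transcription factor genes held 19, 21 and 20 regions in hPSC, shLUC and shHNRNPU, against 18.3, 16.9 and 15.8 from genes of similar length. With ratios of 1.04 (0.624 to 1.62), 1.24 (0.767 to 1.89) and 1.27 (0.773 to 1.95), each interval contained 1. ESRRB, an orphan nuclear receptor known from naive mouse stem cells and the longest of them, had 5 regions in hPSC, 1 in shLUC and 3 in shHNRNPU. The only shLUC region of ESRRB was repeated in shHNRNPU at the same coordinates, 66.40 kb after the start. The shHNRNPU list added 2 regions near the far end, at 156.42 and 163.07 kb, and the second of these was an hPSC region as well. TFCP2L1, a grainyhead-family factor of the naive state, had 0 regions in hPSC and 3 in each hairpin list, all 3 with identical coordinates in both. They lay 0.33, 34.29 and 60.34 kb after its start, while the nearest hPSC region was 19.9 kb away from the gene.

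TFAP2C and MYCN also had 0 regions in hPSC. TFAP2C, an AP-2 factor, had 2 in shLUC and 1 in shHNRNPU, and the shared one lay 0.14 kb from a gene end. MYCN, a MYC-family factor, had the same 2 flanking regions in both hairpin lists, 5.47 kb before and 11.19 kb after its start, the first within the long non-coding RNA gene MYCNUT. The reverse order was seen at PRDM14, a PR-domain repressor of differentiation, with 2 regions in hPSC, 0 in shLUC and 1 in shHNRNPU. The PRDM14 regions in hPSC were centred 0.89 and 0.41 kb from a gene end, and the shHNRNPU region was a different one, 7.44 kb from the gene. UTF1, a chromatin-bound factor of undifferentiated cells, had 1 region in hPSC, 0 in shLUC and 1 in shHNRNPU. The UTF1 region in hPSC lay 0.65 kb before the start, and the one in shHNRNPU lay 10.13 kb before it, within the neighbouring gene KNDC1.

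The Kruppel-like factors differed from each other. KLF4 had 1 region in each list, all at its start. The hairpin lists shared a region centred 0.20 kb after the start, and the hPSC region lay on the other side, 0.34 kb before it, without overlap. KLF5 had 1 region in hPSC, 1 in shLUC and 0 in shHNRNPU, at different places, 17.97 kb after the start in hPSC and 4.31 kb after it in shLUC. ZFP42, which codes for the zinc finger protein REX1, had 1 region in hPSC, 1 in shLUC and 2 in shHNRNPU. The hPSC region covered the promoter printed above, whereas both hairpin lists had a region 16.51 kb after the start and shHNRNPU a further one 6.40 kb before it.

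FOXD3, OTX2 and ZIC2 code for factors that also act at the exit from pluripotency and in the early nervous system. FOXD3, a forkhead factor, had 2 regions in hPSC, 2 in shLUC and 1 in shHNRNPU. The region that both hairpin lists had in FOXD3 lay in its body, 0.86 kb after the start, and the hPSC regions lay in the flanks. OTX2, a homeobox factor, had 2, 2 and 1, all in the flanks. At OTX2 the place upstream of the start, 7.08 kb in hPSC and 7.23 kb in shLUC, was listed in hPSC and shLUC and not in shHNRNPU. ZIC2, a zinc finger factor, had 1, 1 and 2, with the same region 0.29 kb after the start in both hairpin lists.

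The remaining factors had at most 3 regions in a list. SALL1, a spalt-family zinc finger factor, had 1 region in hPSC, 3 in shLUC and 2 in shHNRNPU. A SALL1 flanking place 1.29 kb from the gene in hPSC and 1.62 kb from it in the hairpin lists was present in all 3. Its relative SALL4 had 1 region in hPSC, 1 in shLUC and 0 in shHNRNPU, both in the body at separate places. MYC, which drives growth and proliferation, had 1, 1 and 0, also at separate places of the body. In both SALL4 and MYC, as in KLF5, the shLUC region did not recur in shHNRNPU.

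The 4 genes for RNA regulators held 15 regions in hPSC, 9 in shLUC and 13 in shHNRNPU, against 7.03, 7.04 and 6.47 from genes of similar length. As ratios these were 2.13 (1.19 to 3.52), 1.28 (0.584 to 2.43) and 2.01 (1.07 to 3.43). LIN28B, whose protein blocks maturation of the let-7 microRNAs, had 3 regions in hPSC, 7 in shLUC and 9 in shHNRNPU. No one of the 200 genes of similar length reached 9 regions in shHNRNPU (0.0%), 5.0% reached 7 in shLUC and 58.0% reached 3 in hPSC. A count of 0 of 200 describes that comparison set and is not a test. The hairpin lists shared 6 LIN28B regions with identical coordinates, at 0.17 kb before the start and at 7.33, 22.20, 50.40, 136.06 and 148.99 kb after it. The shLUC list had 1 further region, at 110.57 kb, and shHNRNPU had 3, at 9.20 kb before the start and at 0.23 and 71.15 kb after it. The region at 0.23 kb adjoined the one at 0.17 kb before the start, and merging regions less than 1 kb apart left 8 in shHNRNPU. In hPSC the start of LIN28B was called too, and the other regions, at 16.48 and 137.21 kb, overlapped no hairpin region.

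TRIM71, which codes for an RNA-binding ubiquitin ligase that is itself a let-7 target, had the reverse order, with 8 regions in hPSC, 1 in shLUC and 3 in shHNRNPU. No gene of similar length reached 8 in hPSC (0.0%, mean 1.88), and 81.5% reached 1 in shLUC. The hPSC regions were spread from 1.12 kb before the start to 85.06 kb after it. The single shLUC region, at 72.98 kb, recurred in shHNRNPU and overlapped an hPSC region. The region at 85.06 kb was in hPSC and shHNRNPU with identical coordinates.

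LIN28A, the paralogue of LIN28B, had 2 regions in hPSC, 1 in shLUC and 0 in shHNRNPU, none shared. L1TD1, an RNA-binding protein derived from a LINE-1 element, had 2, 0 and 1. The L1TD1 region over the promoter printed above had the same coordinates in hPSC and shHNRNPU (chr1:62194595-62194994), and the nearest shLUC region was 74.6 kb from the gene.

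The 3 genes of the DPPA family, small SAP-domain or germline factors, held 0 regions in hPSC, 2 in shLUC and 3 in shHNRNPU. Genes of similar length gave 3.11, 2.87 and 2.78. The intervals of the ratios were 0.0 to 1.19, 0.0844 to 2.52 and 0.223 to 3.16, and each contained 1. DPPA2 and DPPA4 act together on developmental promoters and are neighbours whose windows overlap. DPPA2 had 1 region in each hairpin list, identical in both, 5.67 kb after the start. DPPA4 likewise had 1 in each, identical in both, 3.74 kb before the start. The nearest hPSC region was 39.5 kb from DPPA2 and 16.4 kb from DPPA4. DPPA3, a maternal factor that protects DNA methylation, had 0 regions in hPSC, 0 in shLUC and 1 in shHNRNPU, 5.35 kb before its start.

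The 6 signalling genes held 13 regions in hPSC, 5 in shLUC and 9 in shHNRNPU, against 6.52, 5.79 and 5.59 from genes of similar length. Expressed as ratios, they gave 1.99 (1.06 to 3.41), 0.864 (0.28 to 2.02) and 1.61 (0.736 to 3.06). FGF2, the growth factor that sustains human pluripotent cells, had 5 regions in hPSC, 1 in shLUC and 3 in shHNRNPU. At least 5 regions were found in 1.5% of genes of similar length in hPSC. The shLUC region of FGF2 lay 8.68 kb before the start and recurred in shHNRNPU. The other 2 shHNRNPU regions, 0.19 and 54.03 kb after the start, each met an hPSC region, the second with identical coordinates. Of the hPSC regions, 2 lay past the far end, within the body of the neighbouring gene NUDT6.

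NODAL, the TGF-beta-family ligand, had 1 region in hPSC, 2 in shLUC and 2 in shHNRNPU. Both hairpin lists had the same NODAL regions, 0.23 and 15.26 kb after the start, the second within the body of EIF4EBP2, and the hPSC region lay at 0.90 kb. TDGF1, also called CRIPTO, the co-receptor of NODAL, had 3 regions in hPSC, 0 in shLUC and 1 in shHNRNPU. The shHNRNPU region of TDGF1 overlapped an hPSC region 8.38 kb before the start, in the body of LRRC2, and the hPSC region over the promoter was not listed in either hairpin list. LEFTY1 and LEFTY2 code for secreted inhibitors of NODAL. LEFTY1 had 3 regions in hPSC, and 2 when counted by region centres or with regions less than 1 kb apart merged. Both hairpin lists had the same single LEFTY1 region, 0.39 kb from a gene end. LEFTY2 had 1, 1 and 2, with the shared hairpin region 0.26 kb from a gene end. GDF3, a TGF-beta-family ligand, had 0 in every list, and its nearest region was 50.8 kb away in hPSC and 37.9 kb away in shLUC. In shHNRNPU it was 10.1 kb away, just outside the window.

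The 5 genes for DNA methylation, Polycomb and telomerase held 26 regions in hPSC, 18 in shLUC and 14 in shHNRNPU, against 11.0, 10.8 and 10.0 from genes of similar length. Ratios for this role were 2.36 (1.54 to 3.45), 1.67 (0.987 to 2.63) and 1.40 (0.763 to 2.34). JARID2, which recruits the Polycomb complex PRC2, had 15 regions in hPSC, 8 in shLUC and 9 in shHNRNPU, where genes of similar length averaged 4.43, 4.46 and 4.08. The count was reached by 0.0% of those genes in hPSC, 12.5% in shLUC and 4.5% in shHNRNPU. JARID2 had 6 regions in both hairpin lists with identical coordinates, and 2 of them, 160.17 and 223.85 kb after the start, were identical in hPSC as well. The hPSC list alone had the JARID2 promoter, with a region 0.39 kb before the start, and its last region, 276.81 kb after the start, lay in the neighbouring gene DTNBP1.

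The de novo DNA methyltransferase genes had their highest counts in hPSC. DNMT3A had 6 regions in hPSC, 4 in shLUC and 1 in shHNRNPU. The single shHNRNPU region of DNMT3A, 28.43 kb after the start, was also in shLUC, and no hPSC region of the gene overlapped a hairpin region. DNMT3B had 4, 1 and 0, with 3 of the hPSC regions 9.09, 18.60 and 27.99 kb after the start. The remaining hPSC region of DNMT3B reached into the window by its edge, and region centres gave 3. The shLUC region of DNMT3B lay in the flank, and the nearest shHNRNPU region was 10.6 kb from the gene, just outside the window. DNMT3L, the catalytically inactive cofactor, had 0 in every list, with its nearest region 93.3 kb away in hPSC and 23.8 kb in both hairpin lists. TERT, the catalytic subunit of telomerase, had 1 region in hPSC, 5 in shLUC and 4 in shHNRNPU. The shHNRNPU regions of TERT were all in shLUC with identical coordinates, at 0.20, 15.70, 28.81 and 48.82 kb after the start, and the shLUC list had 1 more, at 26.73 kb. At least that many regions were found in 75.5% of genes of similar length in hPSC, 1.0% in shLUC and 1.0% in shHNRNPU.

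**Figure D3:**
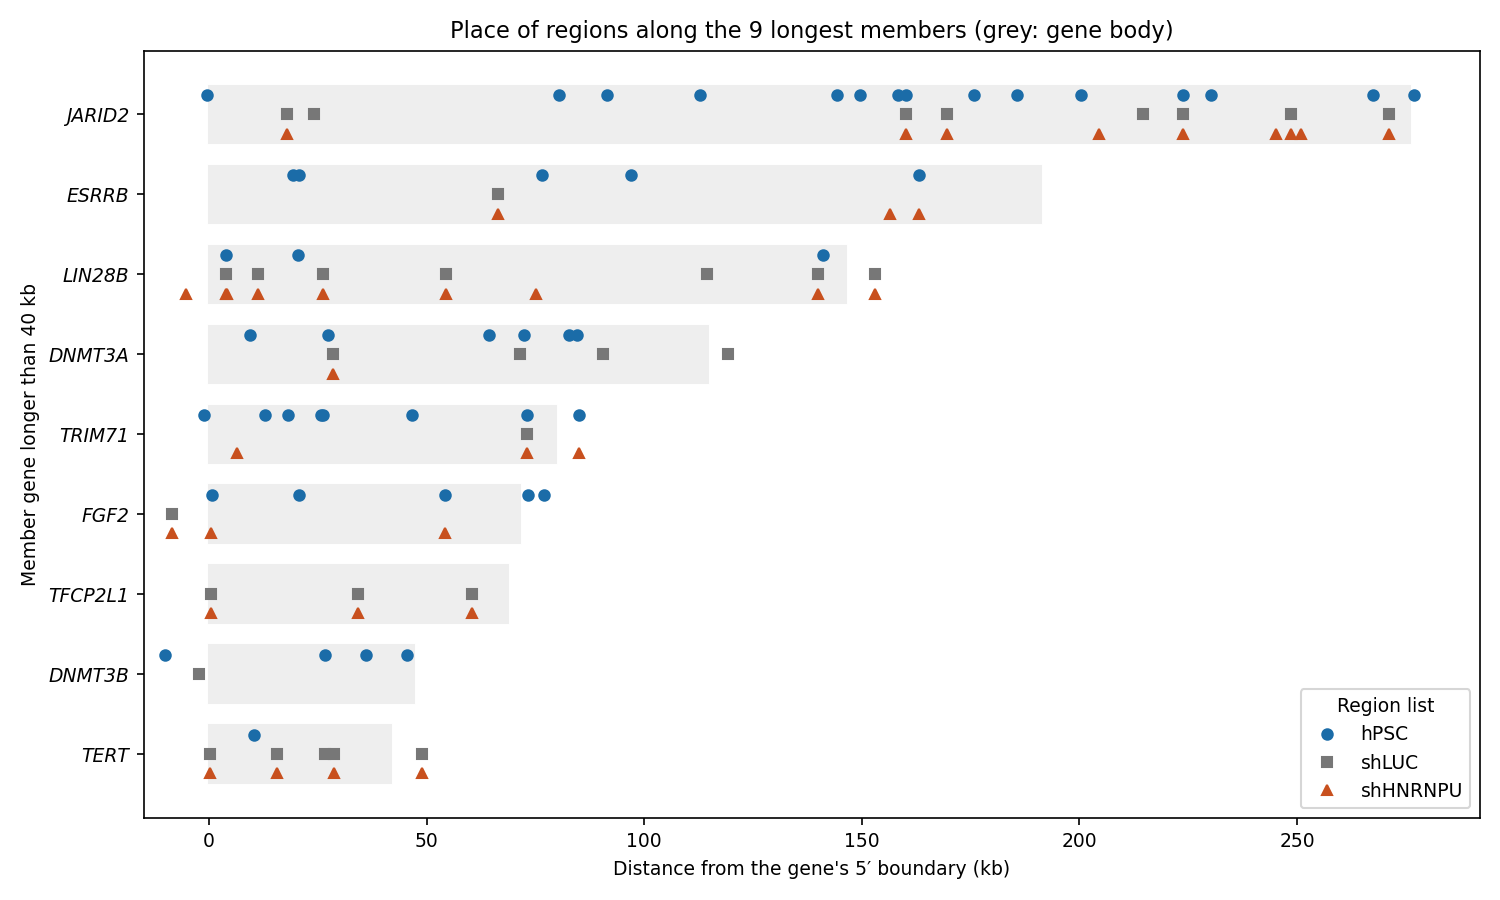
Centres of the regions along the 9 members longer than 40 kb, in kb from the 5′ boundary of the gene body (grey bar), with 1 row of symbols per list for each gene. At TRIM71 8 hPSC regions stand over 1 shLUC region, at LIN28B 3 stand over 7, and most shLUC symbols of LIN28B, TFCP2L1 and TERT have a shHNRNPU symbol below them. For LIN28B, DNMT3B, FGF2 and DNMT3A the boundary differs from the start site used for the distances in the text.

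Counts per window were next set side by side for the hairpin lists, the comparison that bears on HNRNPU. Of the 36 genes, 26 (72.2%) had a different number of regions in shHNRNPU than in shLUC, beside 41.8% of all protein-coding genes and 13.7 genes (38.0%) from genes of similar length. More regions in shHNRNPU were found for 13 genes (36.1%, background 17.3%), which were PRDM14, ZFP42, ESRRB, ZIC2, UTF1, LIN28B, TRIM71, L1TD1, DPPA3, TDGF1, LEFTY2, FGF2 and JARID2. Fewer were found for 13 (36.1%, background 24.5%), which were POU5F1, SOX2, SALL4, SALL1, KLF5, TFAP2C, FOXD3, OTX2, MYC, LIN28A, DNMT3A, DNMT3B and TERT. Both shares were above the background, and both directions held equal numbers of genes. No interval is given for these shares, so how far counting error reaches is open. Genes of similar length were not matched for the number of regions. The members held 1.29 times their number in shLUC and 1.42 times in shHNRNPU. Whether that difference in number plays a part in these shares was not tested. The result depended on the flanks. With the gene body only, 14 of the 36 genes (38.9%) differed, 7 in each direction, beside 30.9% of the other protein-coding genes. Similar length gave 9.16 genes. With a flank of 50 kb, 27 genes (75.0%) differed, beside 61.2% of the other protein-coding genes and 21.8 genes from similar length. With 1 list per group the spread of such counts between cultures is unknown. Most differences were of 1 region, and those of at least 2 were ESRRB, LIN28B, TRIM71 and FGF2, higher in shHNRNPU, and DNMT3A, lower.

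Untreated cells were compared with shLUC in the same way, and this comparison shares the shLUC list with the one above. The count differed for 23 genes (63.9%, background 66.1%). That share was close to the background. How regions were defined in each list is not given, so group and region definition cannot be told apart in these counts. The differences of at least 3 regions were TRIM71, JARID2, ESRRB, FGF2, DNMT3B and TDGF1, higher in hPSC, and LIN28B, TERT and TFCP2L1, lower.

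Region by region, the hairpin lists resembled each other more than either resembled hPSC. Of the 59 shLUC regions in member windows, 41 (69.5%, exact binomial 95% interval 56.1 to 80.8) were also in shHNRNPU, all with identical coordinates. In the windows of the other protein-coding genes the share was 70.6%, and 18396 of those 18399 shared regions also had identical coordinates. Identical coordinates in the hairpin lists were thus not particular to the members. Of the 61 shHNRNPU regions, the same 41 (67.2%, 54.0 to 78.7) were in shLUC, beside 76.2%. Of the 77 hPSC regions, 9 (11.7%, 5.49 to 21.0) overlapped a shLUC region and 12 (15.6%, 8.32 to 25.6) a shHNRNPU region, beside 16.0% and 17.8%. Of the 9 that overlapped a shLUC region 2 had identical coordinates, and in the other windows 1220 of 4250 had them. How regions were defined in each list is not given. The resemblance of the hairpin lists through the cells and through region definition therefore cannot be told apart. These intervals cover counting error only and treat regions as independent. Among the 20 shHNRNPU regions not in shLUC, 7 (35.0%, 15.4 to 59.2) overlapped an hPSC region, beside 30.8% in other windows. They lay at ESRRB, LIN28B, TRIM71, L1TD1, TDGF1 and FGF2, the last with 2. Among the 41 regions of both hairpin lists the share was 14.6% (5.57 to 29.2), beside 16.1%.

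Joining overlapping regions gave 140 places, of which 62 were in hPSC only, 35 in both hairpin lists only, 15 in shLUC only and 13 in shHNRNPU only. Places were joined in member windows only, so these numbers have no background beside them and do not set the members apart from other genes. A further 6 places were in hPSC and shHNRNPU, 3 in hPSC and shLUC, and 6 in all 3 lists. The 6 common places were the SOX2 body, the SALL1 flank, the start of LIN28B, 1 site in TRIM71 and 2 sites in JARID2. The 3 that hPSC shared with shLUC only lay in the flanks of transcription factor genes, SOX2, FOXD3 and OTX2.

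Start sites could be placed for the 26 members that have a strand and a start in the promoter table, and POU5F1, SALL4, SALL1, PRDM14, TFAP2C, MYC, LIN28A, LEFTY1, LEFTY2 and DNMT3L are not among them. A region centre lay within 1 kb of the start of 10 of the 26 genes in hPSC (38.5%, 20.2 to 59.4, background 42.2%), 8 in shLUC (30.8%, 14.3 to 51.8, background 24.9%) and 10 in shHNRNPU (38.5%, 20.2 to 59.4, background 26.0%). Each of the 3 intervals contained the background. SOX2, KLF4, LIN28B and NODAL had such a region in every list. TFCP2L1, FOXD3, ZIC2 and TERT had one in both hairpin lists and not in hPSC. L1TD1 and FGF2 had one in hPSC and shHNRNPU and not in shLUC, and ZFP42, UTF1, TDGF1 and JARID2 had one in hPSC only. Among these 26 genes, each with a start region in shLUC also had one in shHNRNPU. Such patterns across lists were not counted over the other protein-coding genes, so they have no background and do not set the members apart. The 70.6% of shLUC regions that were also in shHNRNPU counts regions anywhere in the windows of those genes. It is no background for genes with a region at the start.

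**Figure D4:**
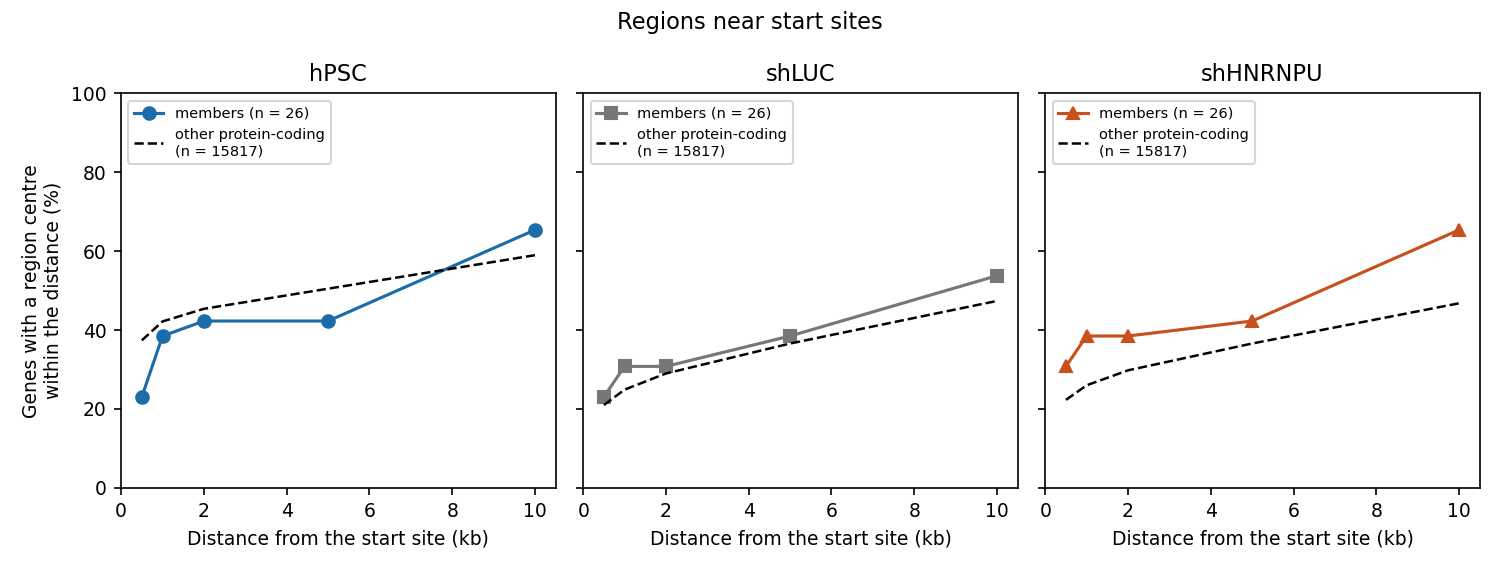
Percent of genes with a region centre within a given distance of the start site in kb, for the 26 members with a known start (symbols) and 15817 other protein-coding genes (dashed), 1 panel per list. Within 0.5 kb the members stand at 23.1% in hPSC, below the 37.4% of other genes, and at 30.8% in shHNRNPU, above 22.3%. Within 10 kb they stand at 65.4% in each of these lists, above 59.0% in hPSC and 46.8% in shHNRNPU. Each symbol has 26 genes behind it, and no interval is drawn.

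The promoters of the members were next set against the regions. A region covered at least 1 base of the promoter of 6 of the 26 genes in hPSC (23.1%), 4 in shLUC (15.4%) and 6 in shHNRNPU (23.1%), beside 32.4%, 16.3% and 17.5% of the other genes. The shLUC promoters were LIN28B, KLF4, TERT and NODAL, with 66.0 to 77.3% G and C. The shHNRNPU promoters were the same 4 with L1TD1 and FGF2, from 58.0 to 77.3%. The hPSC promoters were L1TD1, LIN28B, ZFP42, TDGF1, KLF4 and JARID2, with 46.3 to 73.0% G and C. Among the other genes, promoters with a region had a median of 65.3% G and C against 60.7% without in hPSC, and 71.0% against 61.0% in each hairpin list. The sites of the digest enzymes were common in promoters: 75.8% held an MspI site, 85.5% HaeIII, 27.5% RsaI, 73.3% AluI, 7.33% BamHI and 17.7% PvuII, over 15843 genes. Member promoters held them in 22, 21, 3, 15, 3 and 5 of 26. The part of base composition and of cut sites in where regions were called was not tested.

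The other lists of developmental genes were examined for reference. Of 42 further genes of the pluripotency network, 35 had a region in hPSC, 36 in shLUC and 39 in shHNRNPU (83.3%, 85.7% and 92.9%). Genes of similar length gave 79.0%, 73.8% and 73.0%. The network genes held 1.15 (0.914 to 1.42), 1.44 (1.17 to 1.75) and 1.38 (1.11 to 1.70) times the regions of genes of similar length. Among them TCF7L1, the WNT-pathway repressor, had 9, 4 and 5 regions, and CDH1, the E-cadherin gene, had 6, 0 and 2. TET3, a 5-methylcytosine dioxygenase, had 4, 9 and 8. TCF7L1, CDH1 and TET3 are examples and are long, with 176996, 98246 and 151868 bp. No value from genes of similar length is given for them singly. Of 30 germ layer regulators, which are mostly silent in pluripotent cells, 23, 25 and 25 had a region, with ratios of 1.33, 1.60 and 1.66. The members' ratio of 1.58 in hPSC was above those of both lists, and in shLUC their 1.29 was below both. In shHNRNPU their 1.42 lay between 1.38 and 1.66. The intervals overlapped in each case. Ratios above 1 were thus not particular to the members. A region lay within 1 kb of the start in 16, 18 and 16 of 31 further network genes with a known start (51.6%, 58.1% and 51.6%). For 21 germ layer regulators it was 7, 10 and 11 (33.3%, 47.6% and 52.4%). The background was 42.2%, 24.9% and 26.0%.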

How the data were processed

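Matrix-attached DNA from 6 samples of the H1 line was sequenced, and the authors deposited 1 list of regions for each of the 3 groups. The deposited lists give positions and a score column that held 0 for every region, so no height or p-value was used. Per the labels, the submitters' processing notes name cutadapt, Bowtie2, SAMtools, MACS2 and deepTools and the build hg38, with neither roles nor versions. How the 2 samples of a group were combined, the calling threshold, the use of the input and the read depth are not given in the sources used here. The labels call the molecule polyA RNA, while the extraction they describe is of DNA. The hairpin lists were assigned to the groups they are named for, and the hPSC list through the descriptions of the 2 hPSC samples.

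The members and gene lists were chosen with earlier results of these data known. All 36 members were accounted for, and every member with a region was described by role. Members were matched to the RefSeq gene table by symbol (35) or synonym (1, TDGF1 as CRIPTO). Regions were counted in the gene body plus 10 kb by overlap of at least 1 bp. Expected numbers came from the 200 protein-coding non-member genes nearest in log length. Intervals are exact Poisson or Clopper-Pearson at 95%. Starts and promoters were taken from the RefSeq promoter table of GRCh38.p14, which holds 26 members. No test was run, since each group has 1 list. Alternatives were other flanks, region centres, merging, other comparison genes and other overlap rules. Counting was tested on simulated lists. The tools were matplotlib 3.10.9, scipy 1.17.1, pandas 2.3.3 and numpy 2.4.6 under Python 3.11.15.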

Additional observations from a re-analysis of the deposited data

How the results depend on the processing

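Of 91 recomputed totals, ratios and shares, 84 stayed within 1.5 times or within their interval, and 7 moved. With the gene body only, 18 of the 36 genes held a region in hPSC, they held 50 regions, and 14 genes had a different number of regions in shHNRNPU than in shLUC. With a flank of 50 kb the windows held 132 regions in hPSC, 106 in shLUC and 112 in shHNRNPU, and the hPSC ratio to genes of similar length was 1.17. Over all alternatives that ratio ranged from 1.17 to 1.73 in hPSC, 1.04 to 1.42 in shLUC and 1.19 to 1.57 in shHNRNPU. The share of shLUC regions found in shHNRNPU ranged from 68.6% to 76.4%. The share of hPSC regions found in shLUC ranged from 7.79%, with overlap of at least 50% of both regions, to 18.2%, within 1 kb, and the share found in shHNRNPU from 11.7% to 22.1% under the same rules. Of 432 recomputed counts of single genes 106 moved, 62 of them with the 50 kb flank and 40 with the body only. With region centres the counts of POU5F1 in shLUC and UTF1 in shHNRNPU became 0. In hPSC that of LEFTY1 became 2 and that of DNMT3B 3. Leaving out JARID2 was added after seeing the data. No paired analysis was possible because replicate numbers have no list of their own, and leaving out a replicate could not be run for the same reason.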
